A study of Mus musculus with 18 samples.

Results

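A set of 10 genes that restrain mitogen-activated protein kinase (MAPK) signalling were followed through the responses of cultured mouse tendon cells to factors secreted by T cells. The set comprises the MAPK phosphatase genes Dusp1, Dusp4, Dusp5, Dusp6 and Dusp10, the Sprouty genes Spry1, Spry2 and Spry4, and the Sprouty-related genes Spred1 and Spred2. They were taken by name from the deposited expression table, which held all 10 among its 14391 genes, and every one of them was tested. They lie on 10 different mouse chromosomes.

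The 18 RNA libraries make up 6 groups with 3 libraries each. Tendon cells of the wild-type (WT) genotype, labelled fibroblasts, came from adult or neonatal mice. Cells digested from 4 adult or 3 neonatal tendons were pooled in a well, passaged and frozen, and the thawed cells were cultured for 3 days. All groups then received complete DMEM mixed with an equal volume of a second fluid. For cells of each age this was T cell media alone (here media), supernatant of stimulated adult T cells (adult supernatant) or supernatant of stimulated neonatal T cells (neonatal supernatant). The series title asks how far neonatal tendon cells resist inflammation and what T cell-secreted factors contribute. The sources used here name no mouse strain, exact age, T cell stimulus or length of treatment. The labels put all libraries in 1 batch and leave unsaid whether the 3 libraries in a group are separate cultures, so p-values measure only the spread between these libraries, which may be technical.

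When a growth factor or cytokine binds its receptor, Ras, Raf and MEK pass the signal to the kinase ERK, while related cascades activate the stress kinases JNK and p38. MAPK phosphatases end these signals by removing phosphate from both activating residues of the kinases. Dusp5 (in the nucleus) and Dusp6 (in the cytoplasm) act on ERK, Dusp1 and Dusp4 are nuclear enzymes with a wider choice of kinases, and Dusp10 prefers JNK and p38. Sprouty and Spred proteins act further upstream, between receptor tyrosine kinases and Raf. Many of these genes are themselves switched on by ERK signalling, which makes them negative feedback regulators, and their transcripts are often short-lived. Sprouty proteins are best known for limiting the response of cells to fibroblast growth factors.

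Values are CPM, read counts scaled to the same total in every library, and differences are log2 fold changes with their standard error from limma, a linear model fitted to all genes and libraries at once. A gene was called changed at a Benjamini-Hochberg adjusted p under 0.05 over all 14391 genes. The estimated depth was 12.7 to 17.7 M reads per library. In bulk RNA, fewer cells of a type and less RNA per cell cannot be told apart. All 10 tendon fibroblast markers were measured, with summed levels of 30973 to 36693 CPM per library in media and 12518 to 14852 CPM with adult supernatant. With adult supernatant 7 of the 10 were called lower at each age. For this and the marker counts below, 28.2% of all genes were called higher and 23.9% lower with adult supernatant in adult cells. In neonatal cells 28.3% were called higher and 19.5% lower. Mural cell markers, all 7 measured, summed to 1261 to 1322 CPM in adult and 810.3 to 1085 CPM in neonatal cells in media. With adult supernatant they summed to 307 to 356 and 253 to 269 CPM, and 6 and 7 of the 7 were called lower. Of 8 macrophage markers 7 were measured, at 100.01 to 124 CPM in media and 63.5 to 72.2 CPM with adult supernatant in adult cells, and at 37.0 to 57.3 and 42.5 to 55.1 CPM in neonatal cells. With adult supernatant 3 of them were called higher and 1 lower in adult cells and 5 higher and 1 lower in neonatal cells, where Itgam went from 0.169 to 0.613 CPM in media to 3.45 to 6.87 CPM. Of 9 T cell markers 5 were measured (Cd3d, Cd4, Cd8a, Lck and Il2ra). None lay at the lowest value in the table, 0.127 CPM, in every library of a group. The summed level of these markers was 2.29 to 4.95 CPM in media, 3.65 to 8.66 CPM with neonatal supernatant and 8.31 to 27.2 CPM with adult supernatant. With adult supernatant Il2ra (2.94 ± 0.50), Cd4 (3.21 ± 0.58) and Cd3d (1.88 ± 0.52) were called higher in adult cells. In neonatal cells Cd4 (3.98 ± 0.58) and Il2ra (2.78 ± 0.50) were, and no T cell marker was called lower. Type I interferon response genes had a mean level of 3.46 log2 CPM in media library 2 of adult cells against 1.97 and 1.68 in the other two, and of 3.41 in media library 1 of neonatal cells against 0.79 and 0.43. These are called the interferon-high media libraries. With neonatal supernatant the level was 4.17, 4.74 and 2.48 log2 CPM in adult cells, library 3 being the low one, and 1.07 to 1.45 in neonatal cells. With adult supernatant it was 5.41 to 5.50 in adult and 4.81 to 4.98 in neonatal cells. The part of these differences in the results below was not tested beyond leaving libraries out.

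Adult supernatant moved these genes in both directions. In adult cells it lowered Spry1 16.4-fold and raised Dusp6 5.75-fold and Dusp10 5.45-fold, with smaller rises in Spry2, Spry4, Spred1, Spred2 and Dusp5 and a fall in Dusp4. In all, 7 of the 10 genes were called higher and 2 lower. Among all genes 52% were called, 28.2% higher and 23.9% lower. The median log2 fold change of the 10 genes was 0.79, and that of all genes was 0.03. In neonatal cells adult supernatant raised 6 of the 10 and lowered 3, where 47.8% of all genes were called, 28.3% higher and 19.5% lower. The median was 0.44 for the 10 genes and 0.07 for all genes. The 2 supernatants were each compared with the same 3 media libraries of their cell age. Neonatal supernatant gave 3 higher and 2 lower in adult cells, where 27.3% of all genes were called, 16.1% higher and 11.2% lower. In neonatal cells it gave 1 higher and 2 lower, where 18.3% were called, 10.7% higher and 7.62% lower. The corresponding medians were 0.05 and -0.09 for the 10 genes against 0.03 and 0.04 for all genes.

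**Figure D1:**
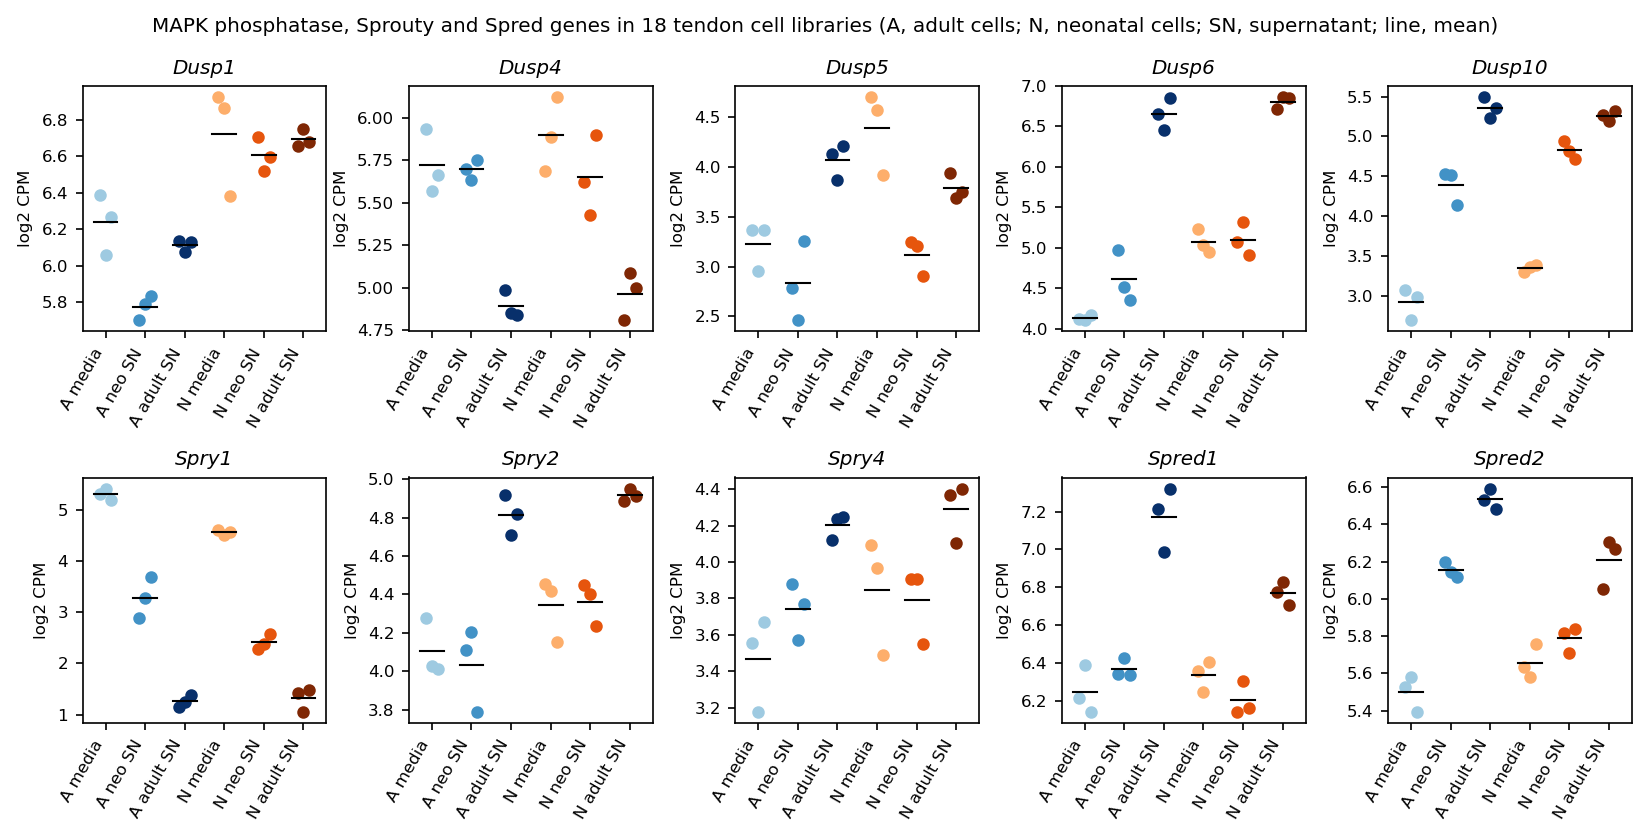
Level (log2 CPM, one panel per gene, each with its own axis range) in every library of the 6 groups, with the group mean as a line. Spry1 falls from media through neonatal to adult supernatant at both cell ages while Dusp10 climbs, and Dusp6 is high in the 6 libraries with adult supernatant.

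The balance of calls over all genes depended on the scaling. Quantile normalization moved the median of all genes from 0.03 to -0.10 for adult supernatant in adult cells, from 0.07 to -0.11 for adult supernatant in neonatal cells, and from -0.05 to 0.09 between the supernatants in neonatal cells. The share of calls that were higher went from 54.1 to 41.7% for adult supernatant and from 59.1 to 46.5% for neonatal supernatant in adult cells. In neonatal cells it went from 59.3 to 39.8% and from 58.5 to 48.4%, and from 42.3 to 61.4% between the supernatants. For the interaction of cell age with adult supernatant, TMM scaling took it from 66.0 to 52.8%. No called value of the 10 genes turned its direction under any alternative, while some small values that were not called did.

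Upstream sequence was available in RefSeq (GRCm38.p6, another build than the GRCm39 named for the deposited values) for 8 of the 10 genes. The sequences of 4 of them are shown. Those of Spry1 and Dusp10 belong to the 2 genes called in all 4 comparisons with media, in opposite directions, and those of Dusp1 and Dusp5 hold motifs tied to growth factor and cyclic AMP signalling. Each is the 250 bases before the annotated start, 5′ to 3′ on the strand of the gene, and capitals mark the motif matches described next.
Spry1 (chr3:37639697-37639946, + strand): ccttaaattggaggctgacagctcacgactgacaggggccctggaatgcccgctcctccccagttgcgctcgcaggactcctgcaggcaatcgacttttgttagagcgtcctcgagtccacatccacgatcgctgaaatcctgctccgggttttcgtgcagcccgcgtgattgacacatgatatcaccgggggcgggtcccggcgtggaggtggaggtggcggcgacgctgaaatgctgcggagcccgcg
Dusp10 (chr1:184034131-184034380, + strand): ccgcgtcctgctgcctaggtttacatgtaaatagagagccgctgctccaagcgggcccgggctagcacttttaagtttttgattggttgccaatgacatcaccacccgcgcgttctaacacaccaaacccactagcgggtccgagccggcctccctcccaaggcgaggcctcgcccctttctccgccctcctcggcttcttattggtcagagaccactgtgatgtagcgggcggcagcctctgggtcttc
Dusp1 (chr17:26508473-26508722, - strand): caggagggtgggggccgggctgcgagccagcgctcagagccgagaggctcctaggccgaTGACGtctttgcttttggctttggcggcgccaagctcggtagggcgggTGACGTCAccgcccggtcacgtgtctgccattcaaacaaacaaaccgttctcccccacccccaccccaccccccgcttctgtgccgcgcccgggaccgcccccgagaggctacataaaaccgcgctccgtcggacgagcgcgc
Dusp5 (chr19:53528895-53529144, + strand): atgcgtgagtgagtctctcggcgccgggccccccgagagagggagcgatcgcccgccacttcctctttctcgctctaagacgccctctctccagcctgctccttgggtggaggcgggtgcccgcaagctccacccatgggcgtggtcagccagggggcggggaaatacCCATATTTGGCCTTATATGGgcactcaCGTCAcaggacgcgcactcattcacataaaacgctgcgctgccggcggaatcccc

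Dusp1 holds the cyclic AMP response element TGACGTCA at -143 to -136 from the start. This motif was in 1.62% of the 27025 mouse promoters of the same window outside chromosome 18 (here all promoters). Dusp5 holds a pair of CArG boxes, the core that serum response factor binds, CCATATTTGG at -82 to -73 and CCTTATATGG at -72 to -63. A CArG box was found in 1.4% of all promoters. The shorter TGACG, which is part of the cyclic AMP response element and so overlaps it in Dusp1, occurred in Dusp1, Dusp5 and Spred2, and in 17.9% of all promoters. No member window held the AP-1 motif TGANTCA (6.87% of all promoters), the ETS motif CCGGAAG (7.05%), the STAT motif TTCNNNGAA (7.18%) or the NF-κB motif (0.94%). Both strands were searched, the motifs were chosen with the expression values known, and a match describes these letters only.

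Per length, the abundant members in media were Dusp1 and Dusp4. Dividing CPM by the longest coding transcript of each gene gave 38.1 ± 4.31 CPM per kilobase for Dusp1 in adult cells in media (mean ± SD, n = 3) and 19.4 ± 2.64 for Dusp4. Spry1 came next with 14.2 ± 1.13 CPM per kilobase, and Spry4 was the lowest with 2.35 ± 0.402. With adult supernatant Dusp6 moved from the seventh place to the highest in adult cells, at 36.3 ± 5.07 CPM per kilobase, beside Dusp1 at 34.8 ± 0.780. These 2 values overlap between libraries. Spry1 dropped to the lowest place, at 0.870 ± 0.0725 CPM per kilobase. In neonatal cells Dusp1 kept the highest place in all 3 groups.

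Dusp1, the immediate-early phosphatase also known as MKP-1, had its highest values in neonatal cells. In adult cells it measured 83.7, 66.7 and 77.0 CPM in the media libraries, 70.2, 67.4 and 69.9 CPM with adult supernatant and 52.1, 55.4 and 57.0 CPM with neonatal supernatant. The neonatal-cell libraries gave 121, 116 and 83.4 CPM, then 101, 107 and 103 CPM, then 104, 91.7 and 96.8 CPM in the same order. All 9 neonatal libraries were at or above 83.4 CPM, and the highest adult one was at 83.7 CPM. The single fall against media was with neonatal supernatant in adult cells, -0.46 ± 0.11 (adjusted p = 0.00501), and those groups did not overlap. With adult supernatant Dusp1 gave -0.13 ± 0.11 in adult and -0.03 ± 0.11 in neonatal cells (95% intervals -0.36 to 0.11 and -0.26 to 0.21), and neither was called.

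Dusp4, a nuclear phosphatase of ERK and JNK, fell with adult supernatant at both ages and did not pass the test with neonatal supernatant. Its values in adult cells were 61.3, 47.4 and 50.8 CPM in media, 52.1, 49.7 and 53.9 CPM with neonatal supernatant and 31.7, 28.8 and 28.7 CPM with adult supernatant. In neonatal cells they were 51.5, 59.3 and 69.7 CPM, 49.3, 43.1 and 59.6 CPM and 28.0, 33.9 and 31.9 CPM in the same order. The 6 libraries with adult supernatant were all below the other 12. The falls were -0.83 ± 0.13 in adult cells (adjusted p = 3.67e-05) and -0.94 ± 0.13 in neonatal cells (adjusted p = 1.26e-05). With neonatal supernatant the changes were -0.03 ± 0.13 (adjusted p = 0.906) and -0.25 ± 0.13 (adjusted p = 0.2).

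Dusp5, the nuclear phosphatase restricted to ERK, went in opposite directions with adult supernatant in the 2 cell ages. It rose in adult cells from 10.3, 7.74 and 10.3 CPM in media to 17.5, 14.6 and 18.5 CPM. In neonatal cells it fell from 26.1, 23.8 and 15.1 CPM to 15.3, 12.9 and 13.5 CPM. The adult groups did not overlap, and in neonatal cells media library 3 sat within the range of the supernatant libraries. The log2 fold changes were 0.84 ± 0.22 (adjusted p = 0.00359) and -0.60 ± 0.22 (adjusted p = 0.0292). The fall in neonatal cells was no longer called once media library 1 was left out (adjusted p = 0.136), media library 2 (0.105), supernatant library 2 (0.0846) or supernatant library 3 (0.0724), or both interferon-high media libraries (0.127). With neonatal supernatant Dusp5 fell in neonatal cells to 9.47, 9.25 and 7.47 CPM, -1.28 ± 0.22 (adjusted p = 0.000424), a call that held in every alternative. In adult cells it measured 6.91, 5.50 and 9.53 CPM, a difference of -0.39 ± 0.22 (adjusted p = 0.197).

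Dusp6, the cytoplasmic ERK phosphatase and a standard transcriptional readout of FGF and ERK signalling, rose with adult supernatant at both ages. It went from 17.4, 17.2 and 18.02 CPM in media to 101, 87.7 and 116 CPM in adult cells, and in neonatal cells from 37.6, 32.7 and 30.9 CPM to 105, 116 and 115 CPM. Every supernatant library lay above every media library of its age. The changes were 2.52 ± 0.14 (adjusted p = 2.14e-10) and 1.74 ± 0.14 (adjusted p = 2.76e-08). Neonatal supernatant gave 31.3, 22.9 and 20.4 CPM in adult cells, a rise of 0.48 ± 0.14 (adjusted p = 0.0178). That rise rested on library 1, since without it the value was 0.30 (adjusted p = 0.111), and it also missed the threshold when only the compared groups entered the fit (adjusted p = 0.0634). In neonatal cells neonatal supernatant gave 33.6, 40.1 and 30.2 CPM, overlapping media, and the change of 0.03 ± 0.14 was not called (95% interval -0.27 to 0.33).

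Dusp10, which acts on JNK and p38, was the only phosphatase gene of the 5 called higher in all 4 comparisons with media. In adult cells it measured 8.40, 6.46 and 7.93 CPM in media, 23.1, 22.9 and 17.5 CPM with neonatal supernatant and 45.0, 37.5 and 41.1 CPM with adult supernatant. The neonatal-cell values were 9.86, 10.2 and 10.5 CPM, 30.8, 28.3 and 26.3 CPM and 38.7, 36.5 and 39.8 CPM. At each age the 3 groups form a ladder without overlap, media below neonatal below adult supernatant. The rises in adult cells were 2.45 ± 0.12 with adult supernatant (adjusted p = 6.39e-11) and 1.48 ± 0.12 with neonatal supernatant (adjusted p = 1.84e-07). In neonatal cells they were 1.91 ± 0.12 (adjusted p = 1.6e-09) and 1.48 ± 0.12 (adjusted p = 2.15e-07). All 4 calls held in every alternative.

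Spry1, a Sprouty inhibitor of receptor tyrosine kinase signalling to Ras, ran the same ladder downwards. Its levels in adult cells were 39.7, 42.4 and 36.2 CPM in media, 7.44, 9.69 and 12.8 CPM with neonatal supernatant and 2.23, 2.38 and 2.63 CPM with adult supernatant. In neonatal cells they were 24.4, 22.8 and 23.6 CPM, 4.84, 5.20 and 5.96 CPM and 2.67, 2.08 and 2.78 CPM. With adult supernatant the cells of either age overlapped at a low level, although they had not overlapped in media. Estimated reads behind those 6 values were 29.3 to 45.4, against 371 to 689 in media. The falls were -4.03 ± 0.18 (adjusted p = 1.8e-11) and -2.01 ± 0.18 (adjusted p = 4.23e-07) in adult cells, with adult and neonatal supernatant. In neonatal cells they were -3.24 ± 0.18 (adjusted p = 3.11e-10) and -2.15 ± 0.18 (adjusted p = 2.42e-07). These 4 calls held in every alternative, and no other Sprouty or Spred gene of the set was called lower against media.

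**Figure D2:**
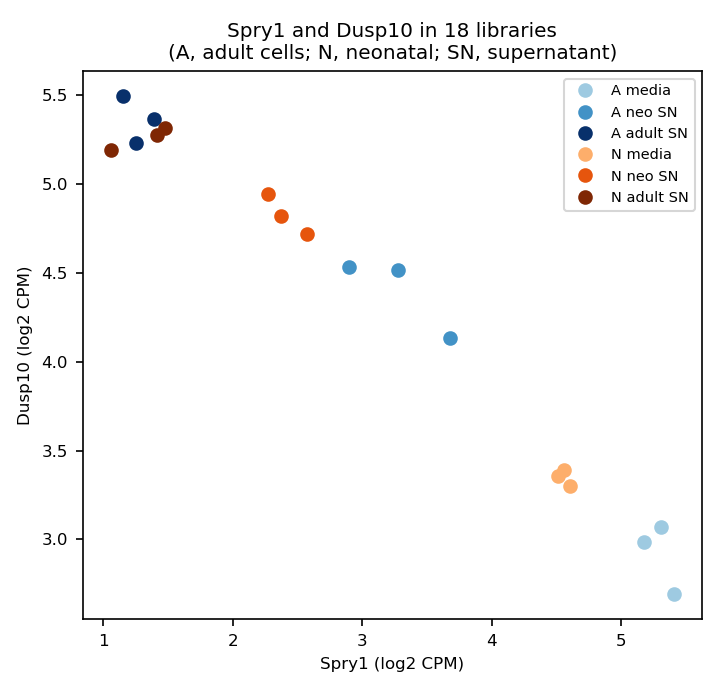
Spry1 (x axis) against Dusp10 (y axis), both in log2 CPM, in each of the 18 libraries, coloured by group. The libraries fall along a single descending line from adult cells in media at the lower right to the 6 libraries with adult supernatant at the upper left.

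The opposite courses of Spry1 and Dusp10 gave a Pearson correlation of -0.99 over the 18 libraries, which fall into the 6 groups, so the value describes the group means above all. Within groups, after subtracting each group's mean, it was -0.58. Dusp6 and Spry2 ran together (0.94, and 0.51 within groups). Dusp4 ran with Spry1 (0.80) and against Dusp6 (-0.87), and within groups these were -0.01 and -0.37. A trio of genes varied together among libraries of the same group. Within groups Dusp1, Dusp5 and Spry4 correlated at 0.70 for Dusp1 with Dusp5, 0.62 for Dusp1 with Spry4 and 0.78 for Dusp5 with Spry4. Library 3 of neonatal cells in media was the lowest of its group in all 3 of these genes.

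Spry2 and Spry4, the other Sprouty genes, rose with adult supernatant where Spry1 fell. Spry2 went from 19.4, 16.3 and 16.1 CPM to 30.2, 26.2 and 28.3 CPM in adult cells and from 22.0, 21.4 and 17.8 CPM to 29.6, 30.9 and 30.1 CPM in neonatal cells. Spry4 went from 11.8, 9.04 and 12.7 CPM to 17.4, 18.8 and 19.0 CPM in adult cells and from 17.1, 15.6 and 11.2 CPM to 20.7, 17.2 and 21.2 CPM in neonatal cells. None of these 4 pairs of groups overlapped, though for Spry4 in neonatal cells media library 1 (17.1 CPM) nearly met supernatant library 2 (17.2 CPM). The rises of Spry2 were 0.71 ± 0.12 (adjusted p = 0.000103) and 0.57 ± 0.12 (adjusted p = 0.000868). Those of Spry4 were 0.74 ± 0.17 (adjusted p = 0.00148) and 0.44 ± 0.17 (adjusted p = 0.0383). The last of these dropped below the call without media library 3 (to 0.26, adjusted p = 0.207), supernatant library 1 (0.104) or supernatant library 3 (0.119), with TMM (0.0749) or quantile scaling (0.116), and with only the compared groups (0.0683). With neonatal supernatant the changes of Spry2 were -0.07 ± 0.12 in adult and 0.02 ± 0.12 in neonatal cells, and those of Spry4 were 0.27 ± 0.17 and -0.06 ± 0.17. None of the 4 was called.

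Spred1 and Spred2 encode membrane proteins of the Sprouty family. Spred1 recruits neurofibromin, which switches Ras off. Spred1 rose from 74.3, 83.8 and 70.7 CPM to 148, 127 and 159.9 CPM with adult supernatant in adult cells and from 82.0, 75.8 and 84.9 CPM to 109, 113 and 104 CPM in neonatal cells. The changes were 0.92 ± 0.08 (adjusted p = 8.39e-08) and 0.43 ± 0.08 (adjusted p = 0.000428), with no overlap at either age. With neonatal supernatant it gave 0.12 ± 0.08 and -0.13 ± 0.08, and neither was called. Spred2 measured 46.1, 47.8 and 42.0 CPM in adult cells in media, 73.4, 70.6 and 69.5 CPM with neonatal and 92.4, 96.5 and 89.3 CPM with adult supernatant, again a ladder without overlap. Its rises there were 0.65 ± 0.08 (adjusted p = 6.45e-06) and 1.03 ± 0.08 (adjusted p = 5.78e-09). In neonatal cells Spred2 measured 49.7, 47.8 and 54.1 CPM in media, 56.4, 52.3 and 57.3 CPM with neonatal and 66.4, 79.0 and 77.0 CPM with adult supernatant. Only adult supernatant raised it there, 0.55 ± 0.08 (adjusted p = 1.39e-05), against 0.13 ± 0.08 with neonatal supernatant (adjusted p = 0.26).

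**Figure D3:**
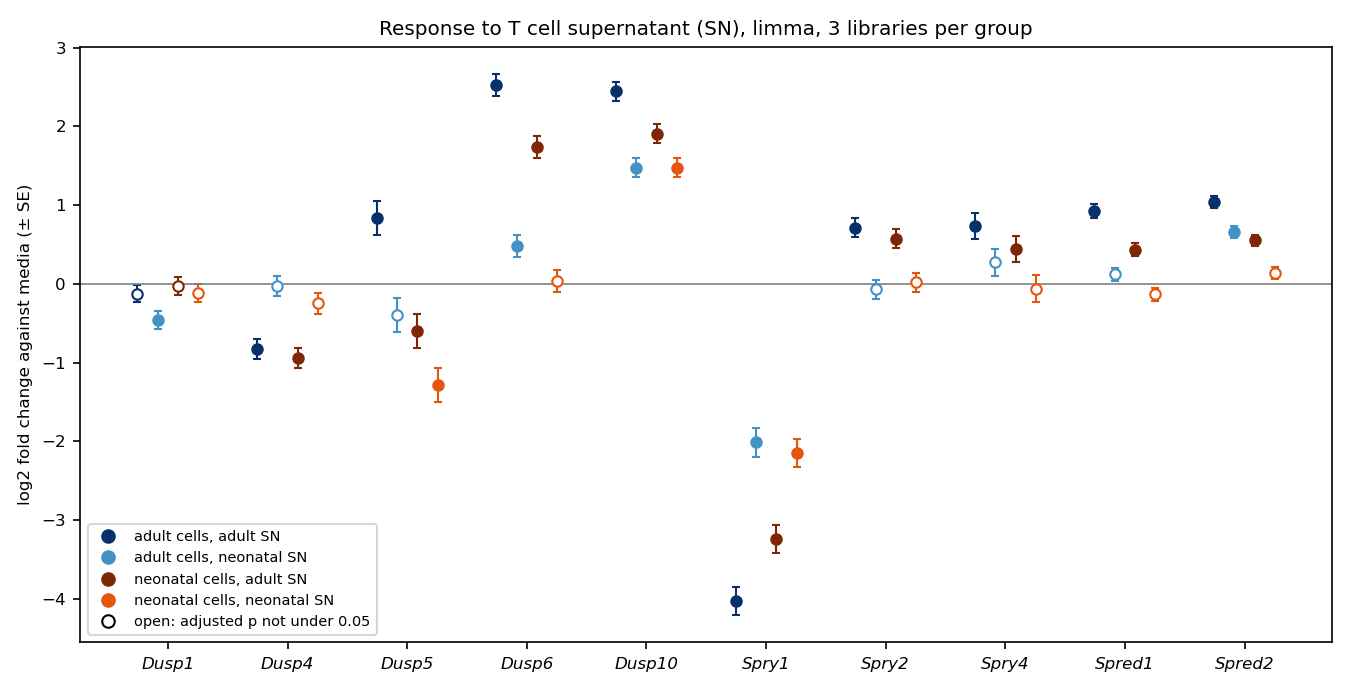
Log2 fold change against media (± standard error, limma, 3 libraries per group) of each gene for the 4 combinations of cell age and supernatant, filled where the adjusted p was under 0.05. Dusp10 is filled and above 0, and Spry1 filled and below 0, in all 4, while Dusp5 lies above 0 only for adult cells with adult supernatant.

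Summed over the families, the totals hide these opposite courses. In adult cells the 3 Sprouty genes summed to 67.9 ± 2.91 CPM in media (mean ± SD, n = 3), 49.1 ± 1.44 with adult and 39.9 ± 0.446 with neonatal supernatant, lower than in media although Spry1 alone of the 3 was called lower. The 2 Spred genes summed to 122 ± 9.46 CPM in media, 238 ± 13.2 with adult and 154 ± 3.28 with neonatal supernatant. The 5 phosphatase genes summed to 164 ± 17.8 CPM in media, 258 ± 20.0 with adult and 160.1 ± 4.76 with neonatal supernatant. Phosphatase sums of neonatal cells were 233 ± 20.2, 299 ± 10.3 and 220.0 ± 7.49 CPM in the same order. The Sprouty sums there were 58.6 ± 5.48, 52.4 ± 1.98 and 39.9 ± 2.87 CPM, and the Spred sums 131 ± 7.65, 183 ± 8.44 and 129 ± 2.14 CPM. These sums were not tested.

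Compared directly, the 2 supernatants left the genes at different levels. In adult cells all 10 were called between neonatal and adult supernatant, 8 lower and 2 higher with neonatal supernatant, where 28.6% of all genes were called, 15.1% higher and 13.5% lower. Dusp6 differed by -2.04 ± 0.14 (adjusted p = 1.55e-08), Dusp5 by -1.24 ± 0.22 (adjusted p = 0.000302) and Dusp10 by -0.97 ± 0.12 (adjusted p = 1.24e-05). Spry1 and Dusp4 were the 2 genes higher with neonatal supernatant, by 2.02 ± 0.18 (adjusted p = 2.72e-07) and 0.81 ± 0.13 (adjusted p = 0.000116). Spry2, Spred1 and Spred2 were lower with neonatal supernatant, with differences of -0.78 ± 0.12, -0.81 ± 0.08 and -0.38 ± 0.08. A pair of the calls was near the threshold. Dusp1 (-0.34 ± 0.11, adjusted p = 0.0313) lost it when any library but neonatal-supernatant library 3 was left out (adjusted p up to 0.0962), and Spry4 (-0.46 ± 0.17, adjusted p = 0.0492) when any of the 6 libraries was (up to 0.164). Quantile normalization also ended both (adjusted p = 0.0647 and 0.0544), and the replicate block ended that of Spry4 (adjusted p = 0.0524).

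In neonatal cells 9 of the 10 genes were called between the supernatants, 7 lower and 2 higher with neonatal supernatant, where 32.4% of all genes were called, 13.7% higher and 18.7% lower. Dusp6 (-1.70 ± 0.14, adjusted p = 1.34e-07), Spred1 (-0.56 ± 0.08, 8.09e-05), Spry2 (-0.55 ± 0.12, 0.00232) and Spred2 (-0.42 ± 0.08, 0.000503) were lower in every alternative. Spry1 (1.09 ± 0.18, adjusted p = 0.000238) and Dusp4 (0.69 ± 0.13, 0.000629) were again the higher ones. Dusp5 (-0.68 ± 0.22, adjusted p = 0.025) and Spry4 (-0.50 ± 0.17, 0.0303) lost the call without adult-supernatant library 1 or 3 or neonatal-supernatant library 3 (adjusted p up to 0.101 and 0.139), and with quantile normalization (0.0823 and 0.0831). Dusp10 (-0.43 ± 0.12, adjusted p = 0.0139) lost it without adult-supernatant library 3 (0.0513) or neonatal-supernatant library 3 (0.0619). Dusp1 was not called there (-0.09 ± 0.11, 95% interval -0.32 to 0.15).

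Before any supernatant, cells of the 2 ages already differed in 5 of the 10 genes. In media, Dusp1, Dusp5, Dusp6 and Dusp10 were higher and Spry1 lower in neonatal than in adult cells, where 28.6% of all genes were called, 16.7% higher and 12% lower. Dusp5 was 2.25-fold higher (1.17 ± 0.22, adjusted p = 0.00067) and Dusp6 1.92-fold higher (0.94 ± 0.14, adjusted p = 0.000114), and the libraries of the 2 ages did not overlap in either gene. The differences in Dusp1 (0.48 ± 0.11, adjusted p = 0.00358), Dusp10 (0.43 ± 0.12, 0.0144) and Spry1 (-0.74 ± 0.18, 0.00576) were smaller. Without both interferon-high media libraries these last 3 were not called (adjusted p = 0.103, 0.112 and 0.0605). Dusp10 lost the call also without library 2 of adult cells in media (0.0851), and with only the 2 media groups in the fit Dusp1 (0.0715) and Dusp10 (0.0852) were not called. Spry4 (0.38 ± 0.17, adjusted p = 0.102) was called once library 3 of neonatal cells in media was left out (0.56, adjusted p = 0.0194). Dusp4, Spry2, Spred1 and Spred2 had values of 0.09 to 0.24 and were not called. Markers of other cell types also differed between the ages in media, and their part in these differences was not tested. Of 5 Schwann cell markers measured among 6 listed 2 were called higher in neonatal cells, with Ngfr at 1.05 to 1.61 CPM in adult and 27.5 to 89.3 CPM in neonatal cells, and the summed level was 195 to 204 and 198 to 345 CPM. Of 7 endothelial markers 5 were called lower, with summed levels of 61.6 to 66.2 CPM in adult and 29.0 to 36.7 CPM in neonatal cells. Of the 7 macrophage markers 3 were called lower, and of the 7 mural markers 2 were higher and 2 lower.

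Whether the 2 cell ages responded differently was tested by the interaction, the response of neonatal cells minus that of adult cells. For adult supernatant 4 of the 10 genes were called, all lower, where 4.55% of all genes were called, 3% higher and 1.55% lower. They were Dusp5 (-1.45 ± 0.31, adjusted p = 0.0119), Dusp6 (-0.79 ± 0.20, 0.0316), Spred1 (-0.49 ± 0.12, 0.0253) and Spred2 (-0.48 ± 0.11, 0.0157). The median interaction was -0.39 for the 10 genes and 0.06 for all genes. For Dusp6 the smaller rise of neonatal cells started from a higher level in media, and with adult supernatant the 2 ages overlapped, at 101 ± 14.2 CPM in adult and 112 ± 6.41 CPM in neonatal cells (mean ± SD, n = 3). Dusp5 was also higher in neonatal cells in media (1.17 ± 0.22). With adult supernatant the 2 ages overlapped in Dusp5 too, at 16.9 ± 2.02 CPM in adult and 13.9 ± 1.25 CPM in neonatal cells. For Spred1 and Spred2 the adult cells ended higher with adult supernatant, at 145 ± 16.8 against 109 ± 4.61 CPM and 92.7 ± 3.61 against 74.1 ± 6.77 CPM, and these groups did not overlap.

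Of these 4 interactions, that of Spred2 held in every alternative. That of Dusp5 held without any single library and missed the threshold without both interferon-high media libraries (-1.16, adjusted p = 0.0808). Dusp6 lost the call when any of 10 of the 12 libraries was left out, all but library 2 of adult cells with adult supernatant and library 3 of neonatal cells in media, with adjusted p up to 0.0805, and without both interferon-high media libraries (0.144). Spred1 lost it without library 1 or 3 of adult cells in media, library 1 or 3 of adult cells with adult supernatant, library 1 or 3 of neonatal cells in media or library 3 of neonatal cells with adult supernatant, with adjusted p up to 0.0653. Dusp10 (-0.54 ± 0.17, adjusted p = 0.0975) and Spry1 (0.79 ± 0.26, 0.097) did not pass. For both, the response of neonatal cells was nearer to 0. The 95% intervals of the other 4 genes spanned 0 and were -0.24 to 0.43 for Dusp1, -0.49 to 0.28 for Dusp4, -0.50 to 0.22 for Spry2 and -0.79 to 0.21 for Spry4.

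**Figure D4:**
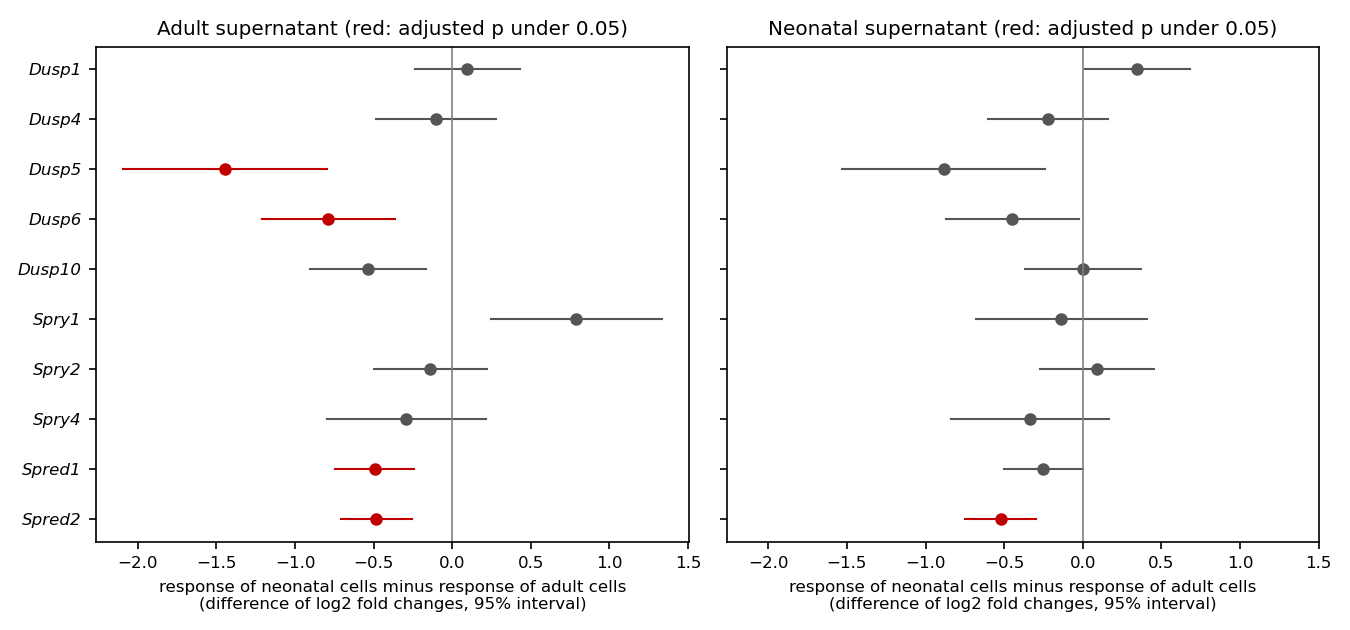
Difference between the responses of neonatal and adult cells (neonatal minus adult, difference of log2 fold changes with its 95% interval) for each gene, with adult supernatant on the left and neonatal supernatant on the right, red where the adjusted p was under 0.05. With adult supernatant Dusp5, Dusp6, Spred1 and Spred2 lie below 0, and with neonatal supernatant Spred2 does.

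For neonatal supernatant 1 of the 10 interactions was called, lower, where 0.855% of all genes were called, 0.493% higher and 0.361% lower. It was Spred2 at -0.52 ± 0.11 (adjusted p = 0.0332), with responses of 0.65 ± 0.08 in adult and 0.13 ± 0.08 in neonatal cells. The call was lost without library 1 or 3 of the media groups of either age or library 1 or 2 of the neonatal-supernatant groups of either age (adjusted p up to 0.0762), with only the compared groups (0.0658) and without both interferon-high media libraries (0.0537). Dusp5 had the larger difference, -0.89 ± 0.31, and did not pass (adjusted p = 0.189, 95% interval -1.53 to -0.24). The responses of Dusp10 were close, 1.48 ± 0.12 in adult and 1.48 ± 0.12 in neonatal cells, with a 95% interval of -0.37 to 0.37 for the difference.

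Other genes of the same families were measured as well, 5 of 7 listed. Spred3 rose with adult supernatant in adult cells (0.74 ± 0.08) and neonatal cells (0.75 ± 0.08), as did Dusp16, a JNK phosphatase (0.85 ± 0.09 and 0.86 ± 0.09). Dusp8 fell in adult cells (-0.56 ± 0.16) and Dusp7 rose in neonatal cells (0.31 ± 0.11). With neonatal supernatant only Spred3 was called, 0.27 ± 0.08 in adult and 0.36 ± 0.08 in neonatal cells. The adjusted p of these 8 values was at most 0.0299. Beside these calls, 52% of all genes were called with adult supernatant in adult cells, 28.2% higher and 23.9% lower. In neonatal cells 47.8% were, 28.3% higher and 19.5% lower. With neonatal supernatant 27.3% of all genes were called in adult cells, 16.1% higher and 11.2% lower. In neonatal cells it was 18.3%, 10.7% higher and 7.62% lower.

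Other inhibitors that act on receptors, Ras or transcripts were led by Errfi1 (Mig6), which blocks the EGF receptor kinase. Errfi1 went from 33.8 ± 0.594 CPM in adult cells in media to 204 ± 20.9 with neonatal and 609 ± 53.8 with adult supernatant (mean ± SD, n = 3). Its log2 fold changes against media were 4.17 ± 0.16 and 2.59 ± 0.16 in adult cells and 3.84 ± 0.16 and 2.49 ± 0.16 in neonatal cells, with adult and neonatal supernatant. Il17rd (Sef), which dampens FGF signalling, fell in all 4 comparisons, with changes of -0.79 ± 0.15, -1.14 ± 0.15, -1.17 ± 0.15 and -1.02 ± 0.15 in that order. Their adjusted p was at most 0.000228. Of the 6 genes listed, all measured, 3 rose and 1 fell with adult supernatant in adult cells, and 3 rose and 2 fell in neonatal cells. Beside these, 52% and 47.8% of all genes were called, 28.2% higher and 23.9% lower in adult cells, and 28.3% and 19.5% in neonatal cells. Rasa1, a GTPase-activating protein of Ras, went up in adult cells (0.29 ± 0.07) and down in neonatal cells (-0.41 ± 0.07) with adult supernatant, and this difference was called (-0.70 ± 0.10, adjusted p = 0.000659).

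**Figure D5:**
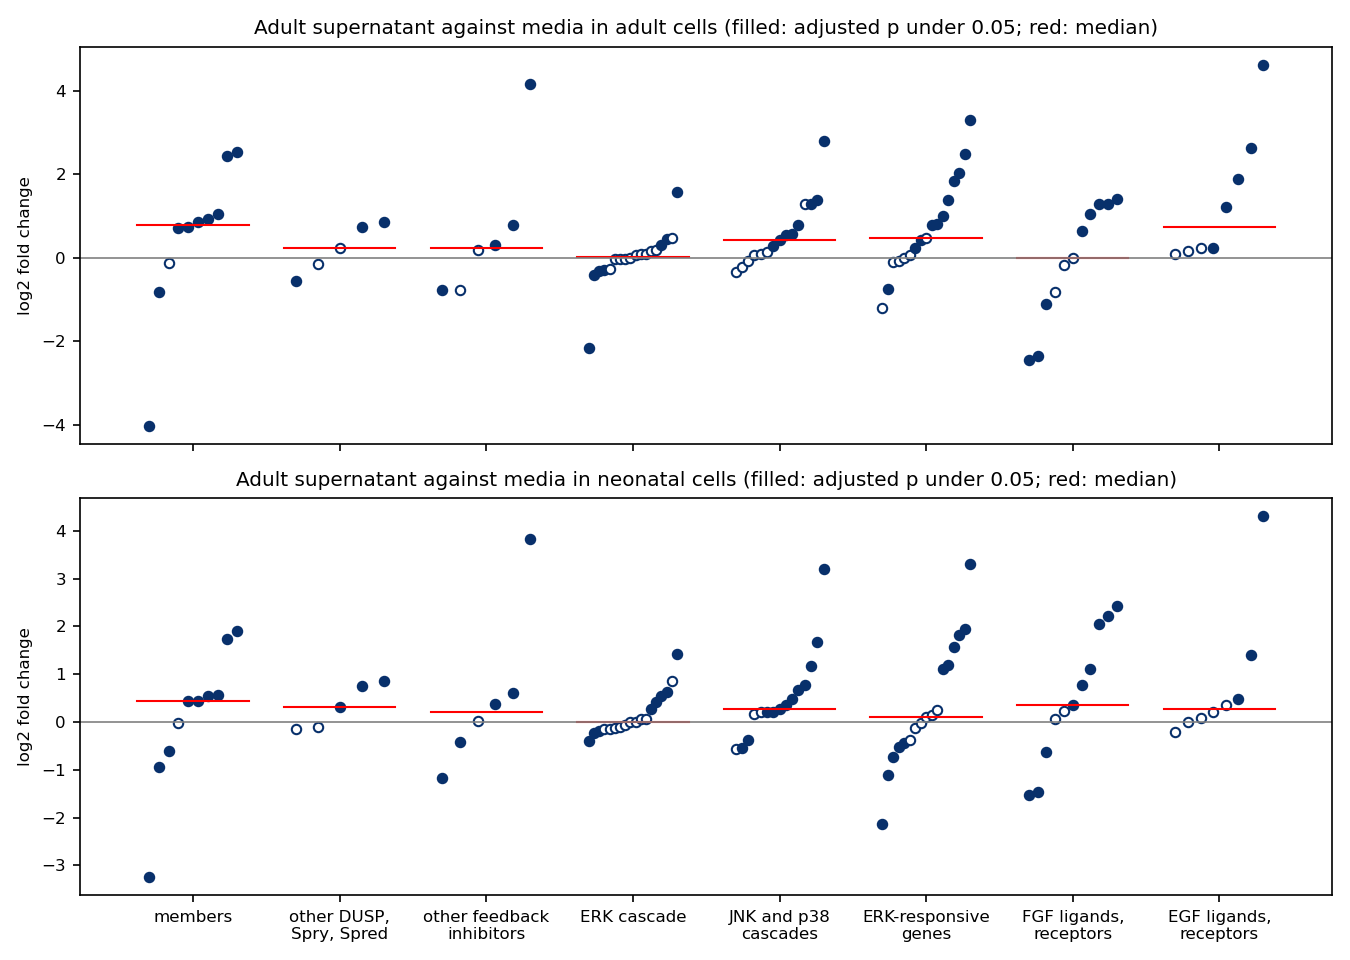
Log2 fold change with adult supernatant against media of the 10 genes (members) and of 7 related lists, in adult cells (top) and neonatal cells (bottom), each point a gene, filled where the adjusted p was under 0.05, with the median of each list in red. The ERK cascade lies close to 0 with Map2k1 above it, while the 10 genes spread from -4.03 to 2.52 in adult cells.

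The kinases and adaptors of the ERK cascade were called in both directions. Of 18 measured, 3 rose and 4 fell with adult supernatant in adult cells (median 0.02) and 5 rose and 3 fell in neonatal cells (median 0.00). Map2k1, which encodes MEK1, stood out with 1.58 ± 0.08 in adult cells (adjusted p = 7.7e-11) and 1.43 ± 0.08 in neonatal cells (adjusted p = 3.54e-10). The scaffold gene Frs2, which links FGF receptors to Ras, rose by 0.45 ± 0.05 and 0.42 ± 0.05. With neonatal supernatant 2 rose and 2 fell in adult cells, and 3 rose and 1 fell in neonatal cells. Beside the 7 and 8 of 18 called with adult supernatant, 52% and 47.8% of all genes were called, and the shares were not tested. Of the 15 JNK and p38 pathway genes, 8 rose and none fell with adult supernatant in adult cells (median 0.43), and 10 rose and 2 fell in neonatal cells (median 0.27). The share called in either direction was near that of all genes in adult cells and above it in neonatal cells. By direction, 28.2% of all genes were called higher and 23.9% lower in adult cells, and 28.3% and 19.5% in neonatal cells. Map3k8 (Tpl2), a kinase that relays inflammatory receptor signals to MEK, rose by 2.80 ± 0.24 and 3.21 ± 0.24. With neonatal supernatant the counts were 3 higher and 1 lower in adult cells and 4 higher and 1 lower in neonatal cells. For both lists, the share of all genes called with neonatal supernatant was 27.3% in adult and 18.3% in neonatal cells.

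Genes known to respond to ERK were mostly called higher with adult supernatant in adult cells, and in both directions in neonatal cells. The counts called, 11 of 17 at each age, stand against 52% and 47.8% of all genes. By direction, 28.2% of all genes were called higher and 23.9% lower in adult cells, and 28.3% and 19.5% in neonatal cells. Of 17, 10 rose and 1 fell with adult supernatant in adult cells (median 0.47), against 6 higher and 5 lower in neonatal cells (median 0.10). Phlda1, Fosl1, Ier3 and Junb rose in adult cells by 2.48 ± 0.11, 1.84 ± 0.11, 2.03 ± 0.13 and 1.38 ± 0.11. In neonatal cells Phlda1 (1.82 ± 0.11), Ier3 (1.94 ± 0.13), Etv1 (3.31 ± 0.26) and Fosl1 (1.20 ± 0.11) led. The interaction with adult supernatant was called, always lower, for 5 of the 17, where 4.55% of all genes were called and 1.55% lower, among them Myc (-0.64 ± 0.10, adjusted p = 0.00194), Egr1 (-0.87 ± 0.19, 0.0167), Egr2 (-1.92 ± 0.45, 0.0204) and Phlda1 (-0.66 ± 0.16, 0.0258). Egr1, an immediate-early transcription factor, measured 59.1 ± 6.32 CPM in adult cells in media and 79.6 ± 14.1 with adult supernatant, against 61.2 ± 4.59 and 44.8 ± 2.18 CPM in neonatal cells. With neonatal supernatant 6 rose and 2 fell in adult cells and 5 rose and 7 fell in neonatal cells, with Egr1 at -0.91 ± 0.14 in the latter (adjusted p = 0.000144). Among all genes, neonatal supernatant gave 16.1% higher and 11.2% lower in adult cells, and 10.7% higher and 7.62% lower in neonatal cells.

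Ligands and receptors upstream of Ras were also followed. Of 8 EGF-family genes measured among 12 listed, 5 rose with adult supernatant in adult cells and 3 in neonatal cells, and none fell. Of all genes 52% were called in adult cells, 28.2% higher and 23.9% lower, and 47.8% in neonatal cells, 28.3% higher and 19.5% lower. Ereg, the ligand epiregulin, rose by 2.61 ± 0.23 in adult and 1.40 ± 0.23 in neonatal cells, and Hbegf, another ligand of the EGF receptor, by 1.22 ± 0.17 in adult cells. Both were higher in neonatal than in adult cells in media (1.07 ± 0.23 and 1.69 ± 0.17) and both had a called interaction with adult supernatant (-1.21 ± 0.32, adjusted p = 0.0382, and -1.22 ± 0.24, adjusted p = 0.00854). Erbb4, a receptor, was at 0.127 to 0.177 CPM in adult cells in media, near the 0.169 to 0.237 CPM that 3 reads give, and at 1.68 to 6.37 CPM with adult supernatant. Of 11 FGF genes measured among 13 listed, 5 rose and 3 fell with adult supernatant in adult cells and 6 rose and 3 fell in neonatal cells. Fgfr2, an FGF receptor, fell in adult (-2.47 ± 0.13) and neonatal cells (-1.47 ± 0.13), and Fgf7, the keratinocyte growth factor, rose by 1.41 ± 0.13 and 2.04 ± 0.13. With neonatal supernatant the EGF-family counts were 3 higher in adult cells and 1 higher in neonatal cells, with none lower. The FGF counts were 2 higher and 2 lower in adult cells and 1 higher and 2 lower in neonatal cells. Of all genes 27.3% were called with neonatal supernatant in adult cells, 16.1% higher and 11.2% lower. In neonatal cells 18.3% were, 10.7% higher and 7.62% lower.

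The genes most like each member over the 18 libraries, by Pearson correlation of log2 CPM among genes averaging 3 log2 CPM or more, are named next. Rnf19b was most like Dusp10 (0.99), followed by Pkm and Steap1, and Adamts10 was most like Spry1 (0.99), followed by Prnp and Npr3. G3bp2, Pomp and Fem1b were most like Dusp6 (0.97 to 0.99), and Rock1, Cpd and Slc30a4 most like Spred1 (0.95 to 0.97). Col6a3, a collagen VI chain, led for Dusp4 (0.96), followed by Pde4dip and Heatr5a. Zeb2, Ero1l and Usp25 came first for Spred2 (0.95 to 0.96) and Csrnp1, Ywhag and Pex5 for Spry2 (0.94 to 0.95). Dusp1 was closest to Cited2, Hspa8 and Ppp1r18 (0.94 to 0.95), Spry4 to Rnd1, Inppl1 and Ereg (0.89 to 0.93) and Dusp5 to Plk3, Ptprn and Cnn3 (0.88 to 0.93). These correlations follow the group means, since the libraries fall into 6 groups, and within groups those of the 30 named pairs ranged from -0.14 for Ero1l with Spred2 to 0.85 for G3bp2 with Dusp6. For the gene most like Dusp10, Rnf19b, the within-group value was 0.74, and for Steap1 it was 0.23. For Spry1 it was 0.79 with Adamts10 and 0.33 with Prnp.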

How the data were processed

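Polyadenylated RNA extracted with Trizol was sequenced from both ends, per the labels' protocols. Per the submitters' processing notes, reads were quantified with kallisto (version not given in the sources used here) against GRCm39 and handled with limma 3.56.2. The deposited table holds log2 CPM of 14391 genes in 18 libraries, as the authors made it, with no raw counts. Every library shares a lowest value of -2.98 log2 CPM, and every gene reaches 1 CPM in at least 3 libraries, so values of low genes include a small offset and their fold changes are understated. All 10 genes passed this filter.

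From each library's low values the lowest deposited value, 0.127 CPM, was first subtracted (2 reads at a depth of 15.8 M). The library's depth was taken as the read total that best turns the remainders into whole numbers (tolerance 0.02 reads). At that total 8.8 to 21.2% of the low values came out whole, and at the next best one 8.0 to 16.0%, least clearly separated for library 3 of neonatal cells with adult supernatant, and the depths are estimates. Precision at these depths covers counting error only.

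Groups follow the labels. A limma 3.58.1 model (R 4.3.3; functions lmFit, contrasts.fit, eBayes, the last with a trend, two-sided, 12 residual and 4.59 prior degrees of freedom) was fitted to every gene on the deposited values of all 18 libraries, in 9 comparisons, with Benjamini-Hochberg adjustment over all genes and a threshold of 0.05. The script was tested on simulated data. The 10 genes, the lists and the naming rule were chosen with earlier results of these data known. The rule names all 10 genes, up to 4 called genes of each list with the smallest p in a comparison and the 3 genes most like each member. Alternatives were TMM scaling, quantile normalization, adding 1 CPM before the log, keeping the 11334 genes with 5 CPM in at least 3 libraries, only the compared groups, a replicate block, omitting any single library, and omitting both interferon-high media libraries. Transcript lengths came from GENCODE M21 and upstream sequence from RefSeq, both on GRCm38, and were matched by symbol. Tables and plots used Python 3.11.15, pandas 2.3.3 and matplotlib 3.10.9.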

Additional observations from a re-analysis of the deposited data

Results flagged for a closer look

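The responses of 4 genes differed between adult and neonatal cells by a test of the difference itself, the interaction in limma with Benjamini-Hochberg adjustment over all genes. For adult supernatant the difference of log2 fold changes, neonatal minus adult cells, was -1.45 for Dusp5, -0.79 for Dusp6, -0.49 for Spred1 and -0.48 for Spred2. For neonatal supernatant it was -0.52 for Spred2. Dusp5 alone among them was called in opposite directions at the 2 ages with adult supernatant, higher in adult cells and lower in neonatal cells. That fall in neonatal cells was not called under some alternatives. Of the interactions, only that of Spred2 with adult supernatant stayed called under every alternative.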

How the results depend on the processing

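Of 90 values of the 10 genes over 9 comparisons, 55 were called, 40 of these stayed called under every alternative run, 15 missed the threshold under at least 1, and none of the called values turned direction. The filter and the pseudocount changed no call. For neonatal against adult cells in media, 3 of the 10 genes were called with only the compared groups and 2 without both interferon-high media libraries, where 2322 of all genes were called against 4122. Leaving out those 2 libraries gave 2 of the 10 genes and 360 of all genes for the interaction of cell age with adult supernatant (4 and 655 with all libraries), and 0 and 59 for that with neonatal supernatant (1 and 123). With only the compared groups the latter gave 0 and 39. Leaving out 1 library gave 2 to 4 genes and 406 to 745 of all genes for the interaction with adult supernatant, and 0 to 1 and 33 to 228 for that with neonatal supernatant. Of these, 406, 434 and 418 came without library 1 of adult cells with adult supernatant, library 2 of neonatal cells in media and library 3 of neonatal cells with adult supernatant. For the interaction with neonatal supernatant, 228 came without library 3 of adult cells with that supernatant (the one of low type I interferon level in its group), and 33 to 73 without library 1 or 2 of that group, library 3 of adult cells in media, library 1 or 2 of neonatal cells in media or library 1 of neonatal cells with that supernatant. The causes were not tested.

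Values that turned direction were all small and not called. Without both media libraries, adult supernatant in neonatal cells gave 0.071 for Dusp1, and neonatal supernatant there gave 0.062 for Spry4. TMM gave -0.011 for Spry2 with neonatal supernatant in neonatal cells. For the interaction of Dusp10 with neonatal supernatant, TMM gave -0.0055 and quantile scaling -0.010. Without 1 library, the ranges for neonatal supernatant in adult cells were -0.11 to 0.080 for Dusp4 and -0.16 to 0.053 for Spry2. For neonatal supernatant in neonatal cells they were -0.079 to 0.13 for Dusp6, -0.076 to 0.081 for Spry2 and -0.24 to 0.062 for Spry4, and for adult supernatant there -0.20 to 0.071 for Dusp1. For the interaction with adult supernatant they were -0.073 to 0.20 for Dusp1 and -0.21 to 0.0064 for Dusp4, and for that with neonatal supernatant -0.13 to 0.11 for Dusp10, -0.33 to 0.061 for Spry1 and -0.034 to 0.18 for Spry2. Dusp1 with neonatal supernatant in neonatal cells passed without library 3 of neonatal cells in media (-0.29, adjusted p = 0.0302).

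Replicate numbers showed little sign of pairing the samples. Deviations of same-numbered libraries from their group means correlated at -0.16 to 0.22 (median -0.008) over 45 pairs of libraries, 2 of them over 0.1. Those of other-numbered libraries correlated at -0.24 to 0.11 (median -0.001) over 90 pairs, 3 of them over 0.1. With the replicate block, Spry4 between the supernatants in adult cells was -0.46 and missed the threshold (adjusted p = 0.0524), and no other call of the 10 genes changed. Spry1 with adult supernatant, at 29.3 to 45.4 estimated reads, is the value that depth limits most.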
